A study of Homo sapiens with 8 samples.

Results

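CXCL9, CXCL10 and CXCL11 are 3 chemokines that bind the receptor CXCR3, and their mRNAs were taken as the 3 rows with these symbols among the 60558 genes measured in each library. RNA-seq had been performed on 8 libraries of 2D human intestinal epithelial cells (hIECs) that had been differentiated from H9, 1 human embryonic stem cell line. Normal hIECs received no agent (labelled NT, 2 libraries), and normal hIECs with PM10 (labelled PM10, 2 libraries) received particulate matter 10 at 100 µg/ml over the last 7 days of the culture. Inflamed hIECs (labelled IT, 2 libraries) received IFNγ and TNFα, each at 50 ng/ml, over 10 days, and inflamed hIECs with PM10 (labelled IT-PM10, 2 libraries) received both cytokines and the same PM10 exposure. All 8 libraries carry the same labelled treatment time of 10 days, and no library received 1 cytokine without the other, so the parts of IFNγ and TNFα cannot be told apart. The labels do not say whether the 2 libraries of a group came from separate cultures, so the p-values given here measure only the spread between these libraries, which may be technical.

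CXCL9, CXCL10 and CXCL11 are small secreted proteins of the CXC family. They are classically induced by interferon γ: the receptor signals through the kinases JAK1 and JAK2 to GAS elements and to the factor IRF1, and TNFα adds to this induction through NF-κB. CXCR3 is carried mainly by activated T cells and natural killer cells, and its ligands are known to guide these cells into inflamed tissue, the intestinal mucosa included.

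The 3 genes lie side by side on the minus strand of chromosome 4 (GRCh38, GENCODE release 44). CXCL9 (ENSG00000138755) spans chr4:76001275-76007509, CXCL10 (ENSG00000169245) spans chr4:76021118-76023497 and CXCL11 (ENSG00000169248) spans chr4:76033682-76041415. No exon of the 3 genes overlaps an exon of another gene, but ART3, on the opposite strand, spans CXCL10 and CXCL11 with its gene body. ART3 was at 0.221 to 0.604 FPKM. The long noncoding RNA SDAD1-AS1, which overlaps the CXCL9 gene body on the other strand, and the pseudogene RPL36P8, inside CXCL11, were listed at 0 in all 8 libraries. Because the libraries hold no strand information, reads of opposite strands cannot be separated in such a region.

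The 250 bases before each transcript start are shown because they hold short motifs of the 2 cytokine pathways, and all 3 genes were matched in the RefSeq promoter table (GRCh38.p14). The sequences run 5′ to 3′ on the minus strand, from chr4:76007510-76007759 for CXCL9, chr4:76023498-76023747 for CXCL10 and chr4:76036071-76036320 for CXCL11, whose RefSeq start lies inside the longer gene span of GENCODE. Capitals mark the motif matches.
CXCL9: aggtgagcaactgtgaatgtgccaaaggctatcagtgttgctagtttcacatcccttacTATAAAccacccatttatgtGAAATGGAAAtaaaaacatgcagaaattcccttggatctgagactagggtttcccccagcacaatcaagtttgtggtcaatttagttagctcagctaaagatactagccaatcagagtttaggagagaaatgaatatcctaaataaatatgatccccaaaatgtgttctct
CXCL10: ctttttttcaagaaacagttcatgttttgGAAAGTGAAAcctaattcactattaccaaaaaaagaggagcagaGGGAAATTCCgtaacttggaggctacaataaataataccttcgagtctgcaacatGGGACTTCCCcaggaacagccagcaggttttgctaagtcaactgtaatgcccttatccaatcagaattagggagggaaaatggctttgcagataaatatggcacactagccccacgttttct
CXCL11: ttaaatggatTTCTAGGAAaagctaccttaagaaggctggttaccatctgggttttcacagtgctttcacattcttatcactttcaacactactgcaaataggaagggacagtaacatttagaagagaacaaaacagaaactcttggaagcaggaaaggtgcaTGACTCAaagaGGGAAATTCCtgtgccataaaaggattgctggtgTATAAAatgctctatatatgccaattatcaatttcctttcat

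Both strands were searched for 2 ISRE-like motifs (GAAA, any 2 or any 3 bases, and GAAA again), the GAS motif TTCNNNGAA, the NF-κB decamer, the AP-1 motif TGANTCA and TATAAA. CXCL9 held the ISRE-like match GAAATGGAAA at 171 to 162 bases before the start and TATAAA at 191 to 186 bases. CXCL10 held the ISRE-like match GAAAGTGAAA at 221 to 212 bases and 2 NF-κB matches, GGGAAATTCC at 177 to 168 bases and GGGACTTCCC at 122 to 113 bases. CXCL11 held the GAS match TTCTAGGAA at 240 to 232 bases, the AP-1 match TGACTCA at 87 to 81 bases, the NF-κB match GGGAAATTCC at 76 to 67 bases and TATAAA at 42 to 37 bases. CXCL10 and CXCL11 thus shared an NF-κB match with the same 10 letters. None of the matches overlapped another, and the ISRE-like motif with 3 bases between was not found in these 3 windows. Over the 35116 promoters of the same length, the ISRE-like motif was found in 3.02% with 2 bases between and in 2.50% with 3, the GAS motif in 6.57%, the NF-κB decamer in 9.96%, the AP-1 motif in 6.57% and TATAAA in 10.7%. A match describes letters and not a bound site.

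**Figure D1:**
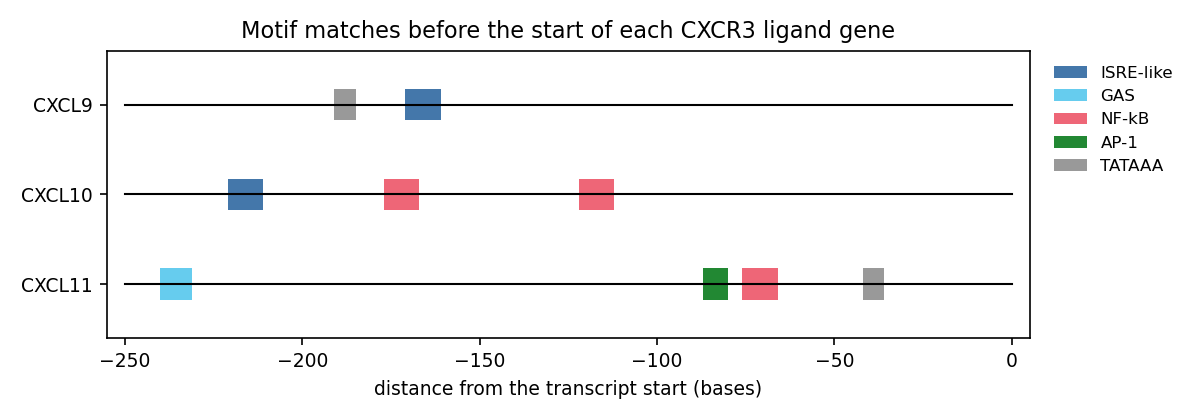
Positions of the motif matches in the 250 bases before the start of CXCL9, CXCL10 and CXCL11, with distance from the transcript start in bases on the x axis and 1 line per gene. Boxes are coloured by motif: CXCL9 holds 1 ISRE-like match, CXCL10 1 ISRE-like and 2 NF-κB matches, and CXCL11 1 GAS, 1 AP-1 and 1 NF-κB match, with TATAAA in CXCL9 and CXCL11.

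Expression was measured as FPKM, the fragments of a gene scaled to its length and the library's total, so that levels of different genes can be set beside each other per length. The files hold no read counts. The FPKM of a library summed to 403354 to 468392, with 16547 to 18926 genes above 0, and the lowest value above 0 was 0.164 to 0.228 FPKM, which was taken to stand for a mean depth of about 1 read over a gene. Mitochondrial genes took 15.5% to 24.2% of the summed FPKM, lowest in inflamed hIECs with PM10 and highest in normal replicate 2, which stood apart from normal replicate 1 in this share (17.02%). In the check of the labelled cell type, the epithelial genes VIL1, CDX2, KRT20, MUC2 and CHGA were listed at 0 in all 8 libraries, CDH1 reached 0.221 FPKM in 1 library and EPCAM did not exceed 0.622 FPKM. KRT8 and KRT18 were present at 100.1 to 383.3 FPKM, SOX9 at 3.66 to 14.97 FPKM and LGR5 at 2.01 to 8.28 FPKM. The 11 mesenchymal genes, among them VIM, COL1A1 and ACTA2, summed to 4424 to 5864 FPKM. The name hIECs is therefore kept here as the label of the cultures.

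Without cytokines, mRNA of the 3 ligands was low, and that of CXCL9 and CXCL11 was near the lower edge of measurement. CXCL10 was at 1.73 and 1.27 FPKM in the 2 normal libraries and at 1.34 and 1.15 FPKM in the 2 normal libraries with PM10. CXCL11 was at 0.525 and 0.432 FPKM in normal hIECs and at 0.352 and 0.400 FPKM with PM10. CXCL9 was listed at 0 in 3 of these 4 libraries and at 0.219 FPKM in normal replicate 1, about 1.34 times the lowest value of that library. The order per length was CXCL10, CXCL11 and CXCL9 in each of the 4 libraries, with CXCL10 at 5.71 to 10.6 and CXCL11 at 1.62 to 3.21 times the lowest value. CXCL9 and CXCL11 therefore entered the test, which asked for 1 FPKM in 2 libraries, only through the cytokine-treated libraries, whereas CXCL10 was above 1 FPKM in all 8.

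With IFNγ and TNFα, the 3 mRNAs stood far above 100 FPKM. CXCL9 was at 220.8 and 221.6 FPKM in the 2 inflamed libraries, a mean of 221.2 ± 0.550 FPKM (SD, n = 2). CXCL10 was at 1314 and 1283 FPKM, a mean of 1299 ± 21.9 FPKM (SD, n = 2). CXCL11 was at 316.0 and 311.8 FPKM, a mean of 313.9 ± 2.94 FPKM (SD, n = 2). For each ligand the inflamed and normal libraries were far apart and did not overlap, which held in this direction for 36.4% of the 14206 genes tested. CXCL10 ranked 32 and 33 among all genes of the 2 inflamed libraries, CXCL11 ranked 179 and 186, and CXCL9 ranked 247 and 251. CXCL10 was thus the highest of the 3, and the order CXCL10, CXCL11, CXCL9 was the one seen without cytokines.

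CXCL10, the 1 ligand that met the minimum of 1 FPKM without cytokines, was called higher in inflamed than in normal hIECs by limma at an adjusted p under 0.05, in a comparison where 56.2% of the genes tested were called, 25.9% higher and 30.3% lower. CXCL9 and CXCL11 were admitted by the libraries in which they were high and so had to differ here, which is why their values are a description. On the log2(FPKM + 1) scale, which understates the change of genes near 0, CXCL10 rose by 9.03 (SE 0.088, limma adjusted p = 2.03e-09), the largest log2 difference among the 14206 genes in this fit. The difference was 7.74 (SE 0.053) for CXCL11, the second in size, and 7.65 (SE 0.088) for CXCL9, the fourth. With no filter on low values (21400 genes), the limma adjusted p was 2.41e-09 for CXCL11 and 2.28e-08 for CXCL9. These sizes depend on the value added before the logarithm: over the alternatives they ran from 7.51 to 10.28 for CXCL9, from 8.89 to 9.68 for CXCL10 and from 7.69 to 9.09 for CXCL11. With 0.1 added, the difference of CXCL9 was larger than that of CXCL10. In the cells exposed to PM10, CXCL10 was also called higher with cytokines than without (9.13 on the log2(FPKM + 1) scale, limma adjusted p = 1.55e-09), where 65.4% of the genes were called, 25.8% higher and 39.6% lower. The difference of CXCL11 was 8.01, and CXCL9 gets no fold in that comparison because both normal libraries with PM10 were listed at 0. The median of all genes in the comparison stood at −0.11 on the log2 scale.

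**Figure D2:**
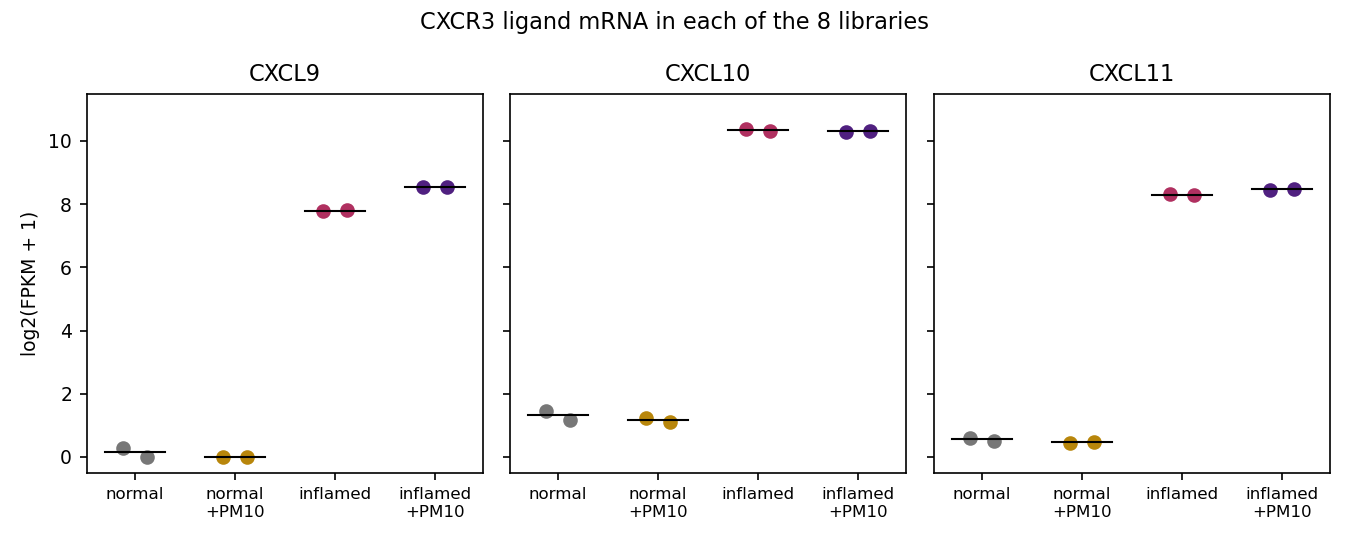
log2(FPKM + 1) of CXCL9, CXCL10 and CXCL11 (y axis) in each of the 4 groups (x axis), with 1 point per library and a line at the group mean. The 4 libraries with cytokines lie between 7.80 and 10.34 as group means, and the group means of the 4 libraries without cytokines do not exceed 1.32.

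In normal hIECs, PM10 could be tested for CXCL10, while CXCL9 and CXCL11 lay below the minimum of 1 FPKM in all 4 libraries compared, where a fall could hardly be measured. CXCL10 was not called by limma, nor were the other 2, where 9.23% of the genes tested were called, 5.51% higher and 3.72% lower. CXCL10 differed by −0.15 (95% interval −0.36 to 0.055, limma adjusted p = 0.293) and CXCL11 by −0.10 (95% interval −0.23 to 0.021, limma adjusted p = 0.242) on the log2(FPKM + 1) scale. The count was also 0 at an unadjusted limma p under 0.05, with values of 0.146 for CXCL9, 0.126 for CXCL10 and 0.0915 for CXCL11. The libraries of CXCL11 did not overlap between the groups, both PM10 libraries lying below both normal libraries, which held for 56.5% of genes in either direction and for 19.2% in this one. Those of CXCL10 did overlap. Without normal replicate 2, CXCL9 was called lower with PM10 (log2 difference −0.29, limma adjusted p = 0.0258), a call that rests on the single value of 0.219 FPKM in normal replicate 1.

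In inflamed hIECs the 3 ligands parted on exposure to PM10. CXCL9 was at 220.8 and 221.6 FPKM without PM10 and at 373.1 and 373.5 FPKM with it, so that its mean with PM10 was 373.3 ± 0.301 FPKM (SD, n = 2). Both libraries with PM10 lay above both without, a gap that held for 31.9% of genes in this direction. CXCL9 rose by 0.75 on the log2(FPKM + 1) scale (SE 0.088, 95% interval 0.55 to 0.96, limma adjusted p = 0.00242), a fold of 1.68 with a 95% interval of 1.46 to 1.94. It was the 1 ligand called of the 3, where 15.2% of genes were called, 6.22% higher and 9.02% lower. CXCL9 stood at rank 102 of the 14206 genes by this increase. The call was lost when 0.1 in place of 1 was added to the FPKM in the fit over all 8 libraries (log2 difference 0.75, limma adjusted p = 0.295). In that fit the spread between the 2 normal libraries of CXCL9 grew from an SD of 0.20 to 1.18 on the log2 scale, whereas the SD of the inflamed libraries stayed at 0.0036. With 0.1 added and the fit kept to the 4 inflamed libraries, an alternative chosen after seeing the data, CXCL9 was called (limma adjusted p = 0.00476).

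CXCL10, the most abundant of the 3, showed no such increase. It was at 1314 and 1283 FPKM in inflamed hIECs and at 1254 and 1265 FPKM with PM10, a mean of 1259.6 ± 7.32 FPKM (SD, n = 2). Both libraries with PM10 lay slightly below both without, as for 33.2% of genes. The log2 difference was −0.044 (95% interval −0.25 to 0.16, limma adjusted p = 0.767), a fold of 0.970 whose interval ran from 0.841 to 1.12. An increase of the size fitted for CXCL9 lay outside this interval.

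CXCL11 lay between them. It was at 316.0 and 311.8 FPKM in inflamed hIECs and at 351.0 and 357.4 FPKM with PM10, a mean of 354.2 ± 4.58 FPKM (SD, n = 2). Both libraries with PM10 were above both without, as for 31.9% of genes. The log2 difference was 0.17 (SE 0.053, 95% interval 0.049 to 0.30), a fold of 1.13, and missed the threshold with a limma adjusted p of 0.069. It was called when the libraries were quantile normalized (0.29, limma adjusted p = 0.00942) or centred on their medians (0.17, limma adjusted p = 0.0433), when the fit was kept to the 4 inflamed libraries (limma adjusted p = 0.0252) and when either normal library was left out (limma adjusted p = 0.0281 in both cases). The increase of CXCL11 was thus small next to that of CXCL9, and its call depended on the fit.

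**Figure D3:**
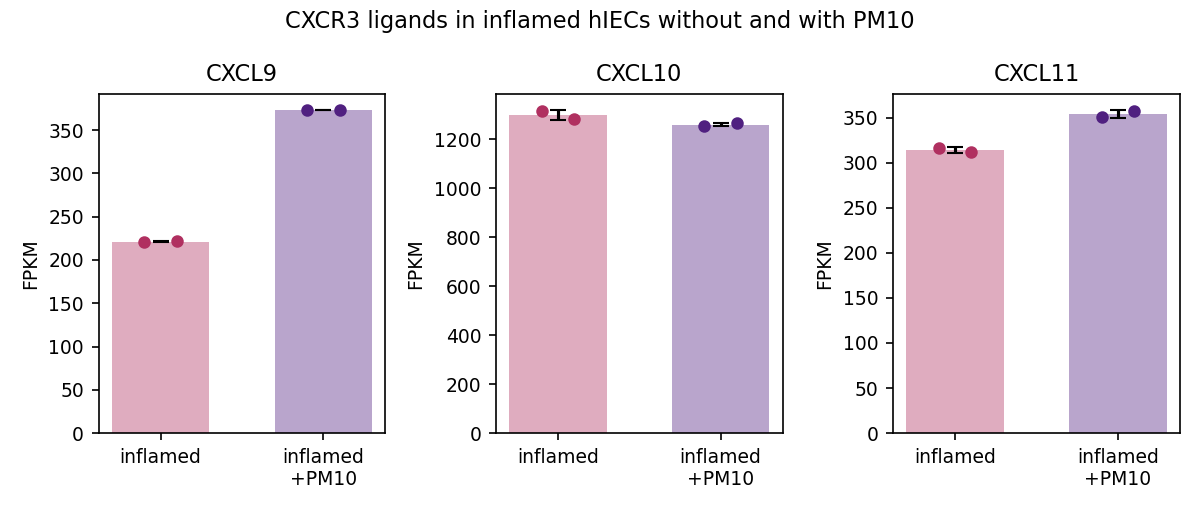
FPKM of the 3 ligands (y axes start at 0 and differ between panels) in inflamed hIECs without and with PM10 (x axis). Bars are means, points are the 2 libraries of a group and error bars are SD: CXCL9 stands at 221.2 against 373.3, CXCL10 at 1299 against 1259.6 and CXCL11 at 313.9 against 354.2 FPKM.

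The difference with PM10 was also set against that in normal hIECs. The interaction of PM10 and cytokines on the log2(FPKM + 1) scale was 0.89 for CXCL9 (SE 0.12, 95% interval 0.60 to 1.19, limma adjusted p = 0.00969), where 6.6% of all genes were called, 2.11% in this direction and 4.48% in the other. For CXCL10 it was 0.11 (limma adjusted p = 0.655) and for CXCL11 0.28 (limma adjusted p = 0.0763). For CXCL9 this is no independent result: with 3 of the 4 libraries without cytokines at 0, its PM10 difference there was held near 0, and the interaction mostly restates the difference in inflamed hIECs. With 0.1 added before the logarithm it was 1.59 with a limma adjusted p of 0.194, no longer called. CXCL11 was called in this test under median centring (0.32), quantile normalization (0.41) and without normal replicate 2 (0.32). Single values were not tested on their own, since an exact two-sided permutation test of 2 against 2 libraries cannot give a p below 0.333.

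Because the 3 ligands moved unequally, their make-up changed. CXCL10 took 71.0% and 70.6% of the summed FPKM of the 3 ligands in the inflamed libraries and 63.4% in both with PM10. CXCL9 took 11.9% and 12.2% without PM10 and 18.9% and 18.7% with it. CXCL11 took 17.1% and 17.2% without PM10 and 17.7% and 17.9% with it. The share that CXCL10 gave up was thus mostly matched by CXCL9. The order of the lower pair also turned: the ratio of CXCL9 to CXCL11 was 0.699 and 0.711 in inflamed hIECs and 1.06 and 1.05 with PM10, a ratio that was chosen after the values were seen. The ratio of CXCL9 to CXCL10 was 0.168 and 0.173 without PM10 and 0.297 and 0.295 with it, and that of CXCL11 to CXCL10 was 0.240 and 0.243 against 0.280 and 0.283. In the libraries without cytokines, CXCL10 took 70.0% to 79.3% and CXCL11 20.7% to 25.9% of a sum of only 1.55 to 2.48 FPKM.

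**Figure D4:**
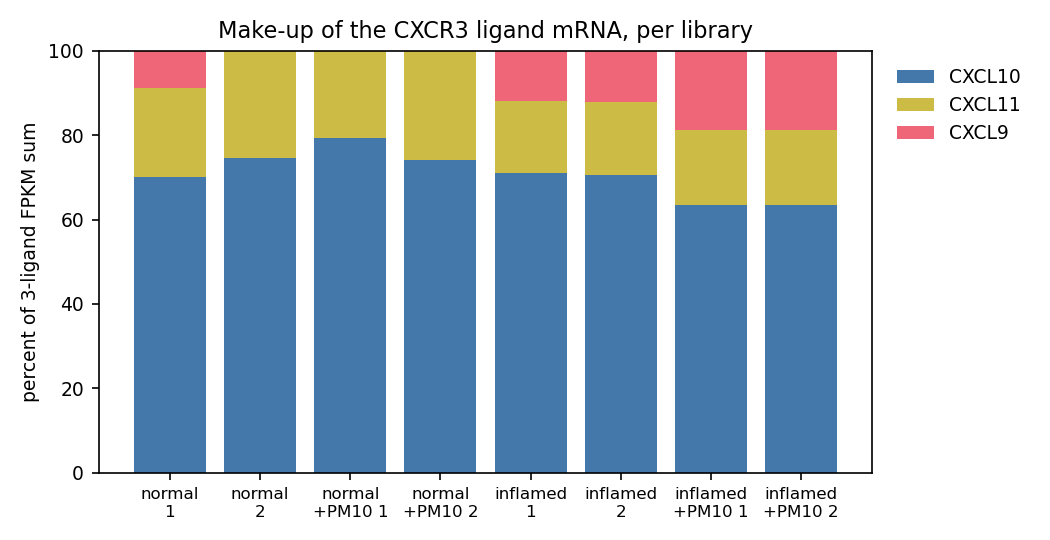
Share of CXCL10, CXCL11 and CXCL9 in the summed FPKM of the 3 ligands (y axis, percent) for each of the 8 libraries (x axis), as stacked bars. CXCL9 takes 11.9% and 12.2% in the inflamed libraries and 18.9% and 18.7% in those with PM10; the bars without cytokines rest on sums of 1.55 to 2.48 FPKM.

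The summed FPKM of the 3 ligands was 1851 and 1817 in inflamed hIECs and 1978 and 1996 with PM10. This was 50.1% and 49.8% of the FPKM of all chemokine genes on the lists without PM10, and 41.4% in both libraries with PM10, against 0.214% to 0.358% in the 4 libraries without cytokines. The share was lower with PM10 although the sum was not: the FPKM of all these chemokine genes was 3691 and 3645 without PM10 and 4781 and 4818 with it. The comparison of PM10 in inflamed hIECs and the comparison of inflamed with normal hIECs share the 2 inflamed libraries, so the values of a gene in both are given side by side and are not independent.

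On the receptor side, CXCR3 itself was listed at 0 in all 8 libraries, as were PF4 and PF4V1, the platelet chemokines that bind a CXCR3 variant. ACKR3, a scavenging receptor for CXCL11, was at 0.242 to 0.914 FPKM, and ACKR1, a chemokine sink on red cells and venules, did not exceed 0.729 FPKM. DPP4, the protease that trims and inactivates CXCR3 ligands, was listed at 0 in the 4 libraries without cytokines and in 1 with them, and its highest value was 0.371 FPKM. Only the syndecans, heparan sulfate proteoglycans that hold chemokines at the cell surface, passed the filter, 2 of the 8 genes of this list. SDC4 rose by 1.46 (limma adjusted p = 1.04e-06) and SDC1 by 0.78 (limma adjusted p = 6.03e-05) with cytokines, on the log2(FPKM + 1) scale. In inflamed hIECs exposed to PM10, SDC1 rose from 16.3 and 17.8 to 24.0 and 23.9 FPKM (log2 difference 0.47, limma adjusted p = 0.00554), while SDC4 differed by −0.040 (limma adjusted p = 0.665).

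The genes that carry the IFNγ signal moved with cytokines in both directions. Of 15 tested genes of this list, 9 were called higher and 3 lower, beside 25.9% and 30.3% of all genes tested, with a median log2 difference of 0.70, against −0.028 over all genes. Of the 14 that reached 1 FPKM in both normal libraries, 8 were higher and 3 lower. IRF1, a transcription factor of the interferon response, was at 4.21 and 3.09 FPKM in normal and at 81.2 and 81.3 FPKM in inflamed hIECs (log2 difference 4.15). IRF8, a related factor, rose by 3.80. SOCS1, a feedback inhibitor of JAK kinases, rose by 1.46, whereas SOCS3, a feedback inhibitor best known from IL-6 signaling, fell by 0.84 and the receptor chain IFNGR2 fell by 0.26. The cytokine gene IFNG, as well as TNF, was listed at 0 in all 8 libraries.

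With PM10 in inflamed hIECs, where CXCL9 rose, 0 of these 15 genes were called higher by limma (2 at an unadjusted p under 0.05) and 1 was called lower, beside 6.22% and 9.02% of all genes, with a median of 0.068 beside −0.0061 over all genes. The gene called lower was SOCS3 (−0.44, limma adjusted p = 0.0072). IRF1 was at 76.0 and 74.5 FPKM with PM10, below both inflamed libraries without it, a gap that held for 33.2% of genes in this direction. IRF1 differed by −0.11 (limma adjusted p = 0.532) and IRF8 by 0.068 (limma adjusted p = 0.535). In normal hIECs, 4 of the 15 were called higher and 0 lower with PM10 by limma (1 lower at an unadjusted p under 0.05). The shares of all genes were 5.51% and 3.72%. Among the 4 were STAT2 (0.34), STAT3 (0.23) and IRF1 (0.44). No ligand was called in that comparison.

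Of the genes of the TNFα and NF-κB route, 18 were tested, and 14 were called higher and 0 lower with cytokines by limma (0 lower also at an unadjusted p under 0.05). This stood beside 25.9% and 30.3% of all genes, and the median log2 difference of the 18 was 0.75. Of the 16 that reached 1 FPKM in both normal libraries, 12 were higher. TNFAIP3, the deubiquitinase A20 that restrains NF-κB, rose by 2.62, its inhibitor NFKBIA by 2.09, and the subunits NFKB1 by 1.84 and RELB by 1.68, while the subunit RELA differed by 0.0053 (limma adjusted p = 0.947). BIRC3, a ubiquitin ligase of the TNF receptor complex, was listed at 0 in both normal libraries and at 3.92 and 4.05 FPKM in the inflamed ones. With PM10 in inflamed hIECs, 2 of the 18 were called higher and 0 lower by limma (2 lower at an unadjusted p under 0.05), beside 6.22% and 9.02% of all genes, with a median of 0.021. The 2 were BIRC3 (0.51, limma adjusted p = 0.00709) and TNFAIP3 (0.38, limma adjusted p = 0.0112). In normal hIECs, 4 of the 18 were called higher and 0 lower with PM10 by limma (0 lower also at an unadjusted p under 0.05). The shares of all genes were 5.51% and 3.72%. The 4 were TNFRSF1A, RIPK1, NFKB1 and NFKBIE, by 0.31 to 0.34.

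Other chemokines set the ligands in their surroundings. With cytokines, 7 of the 8 tested CXC genes outside the trio were called higher and 1 lower, beside 25.9% and 30.3% of all genes. The gene called lower was CXCL12, a ligand of CXCR4 and ACKR3, which fell by 0.82. Only 2 of the 8 reached 1 FPKM in both normal libraries, of which 1 was higher and 1 lower, and the other 6 were admitted through the libraries with cytokines. Of the 8 tested CC, CX3C and XC genes, 7 were called higher and 0 lower by limma, beside the same 25.9% and 30.3%. The counts were the same at an unadjusted p under 0.05. Of the 8 genes, 4 reached 1 FPKM in both normal libraries, and 3 of the 4 were higher. The others were admitted through the libraries with cytokines. CCL5, a T cell and monocyte attractant, was listed at 0 in both normal libraries and at 112.4 and 121.8 FPKM in the inflamed ones. The monocyte attractants CCL7 and CCL2 rose by 5.44 and 4.31. All these genes stood below CXCL10 per length in inflamed hIECs, CCL2 being the nearest at 1090 FPKM in both libraries.

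With PM10 in inflamed hIECs, 5 of the 8 CXC genes and 4 of the 8 others were called higher and 0 lower by limma, at an adjusted as at an unadjusted p under 0.05, beside 6.22% and 9.02% of all genes, with median log2 differences of 0.81 and 0.27. CXCL8 and CCL1 reached 1 FPKM in 2 libraries only through those with PM10, so their calls say little. The neutrophil attractants CXCL8 (1.54), CXCL1 (1.38), CXCL5 (1.26) and CXCL6 (1.16) had larger differences than CXCL9 on the log2(FPKM + 1) scale, although they reached only 4.46 to 17.3 FPKM. CCL1 was at 0.285 and 0.458 FPKM without and 3.39 and 3.43 FPKM with PM10. CCL7 rose by 1.27, CCL5 by 0.85, CCL2 by 0.46 and CXCL12 by 0.45. CCL2, at 1496 and 1511 FPKM, was above CXCL10 in both inflamed libraries with PM10. In normal hIECs with PM10, CCL7 (0.80) and CCL2 (0.31) were called higher, where 5.51% of all genes were called higher and 3.72% lower. CXCL1, at 0.391 and 0.425 FPKM without PM10 and listed at 0 with it, was called lower. It met the minimum of 1 FPKM only through the libraries with cytokines and was near the lowest measurable value here, so its call says little. Differences between one chemokine and another were not tested.

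**Figure D5:**
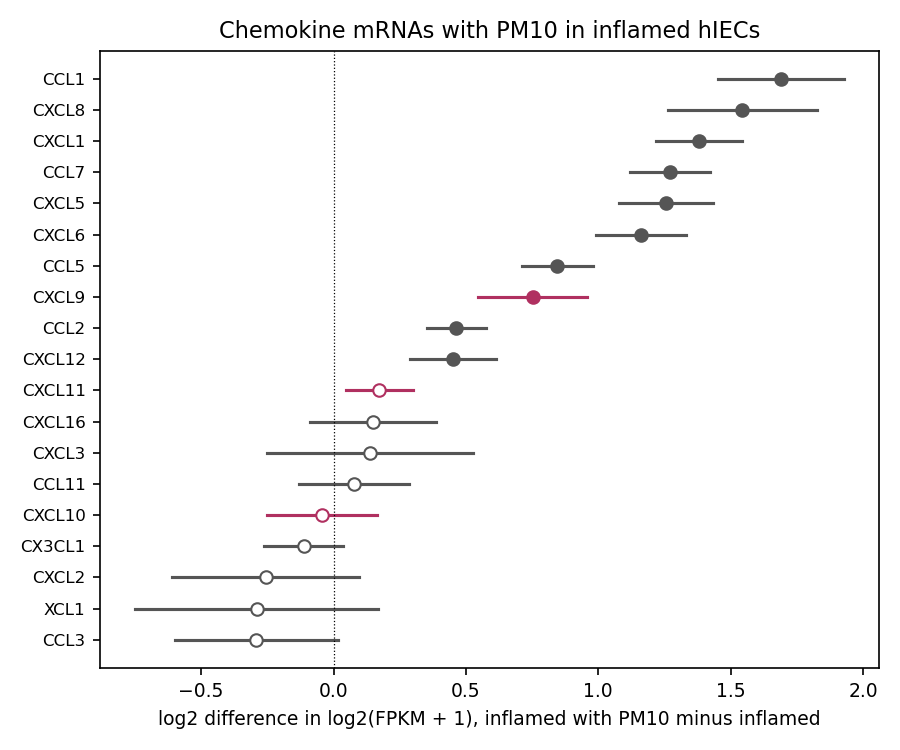
log2 difference of log2(FPKM + 1) between inflamed hIECs with PM10 and without (x axis) for each tested chemokine gene (y axis), with 95% intervals from limma. Filled points have a limma adjusted p under 0.05 and the 3 CXCR3 ligands are in red: CXCL9 lies at 0.75 among the called genes, CXCL11 at 0.17 and CXCL10 at −0.044 among those not called.

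Of the other genes that respond to IFNγ, 15 were tested. All 15, with a median log2 difference of 4.20, were called higher with cytokines, beside 25.9% of all genes. This held for the 10 of them that reached 1 FPKM in both normal libraries. Of the 10, TAP1 was at 6.47 and 5.18 FPKM in normal and at 167.9 and 167.3 FPKM in inflamed hIECs. Of the 15, UBD, a ubiquitin-like modifier, rose by 7.15 and IDO1, the tryptophan-degrading enzyme, by 6.88. GBP5, a guanylate-binding protein, went from 0 in both normal libraries to 127.7 and 128.7 FPKM. UBD, IDO1 and GBP5 met the minimum of 1 FPKM only through the libraries with cytokines, so they had to differ here and their values are a description. With PM10 in inflamed hIECs, 2 of the 15 were called higher and 1 lower, beside 6.22% and 9.02% of all genes, and the median was 0.055. The adhesion molecule ICAM1 (0.47) and CD274, which encodes PD-L1 (0.43), were called higher, and the MHC class II chain HLA-DRA (−0.77) was called lower. IDO1 differed by 0.21 (limma adjusted p = 0.119) and GBP5 by −0.066 (limma adjusted p = 0.417). In normal hIECs, 4 of the 15 were called higher with PM10, ICAM1 (0.67) among them, and 2 lower, beside 5.51% and 3.72% of all genes.

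Of the neighbours of the 3 genes on the chromosome, 4 were tested. Of these, 2 were called higher and 0 lower with cytokines, beside 25.9% and 30.3% of all genes. NAAA, a lysosomal amidase, rose by 1.03 and SCARB2, a lysosomal membrane protein, by 0.37. NAAA met the minimum of 1 FPKM only through the libraries with cytokines. Of the 3 that reached 1 FPKM in both normal libraries, 1 was higher. On exposure of inflamed hIECs to PM10, 0 of the 4 were called by limma (1 at an unadjusted p under 0.05), beside 15.2% of all genes. The median of the 4 was 0.10. The genes whose profile over the 4 groups was most like that of a ligand were searched among all genes tested, by the root mean square difference of centred group means of log2(FPKM + 1) from 8 libraries. For CXCL9 these were IL32 (0.18), CXCL11 (0.23), OR2I1P (0.38), CCL5 (0.40) and UBD (0.40). For CXCL11 they were IL32 (0.14), OR2I1P (0.22), CXCL9 (0.23), UBD (0.24) and CCL5 (0.37). For CXCL10 the nearest were CXCL9 (0.57) and CXCL11 (0.61), followed by IL32 (0.63), OR2I1P (0.82) and UBD (0.83). IL32, a cytokine gene, had group means of 1.71, 2.00, 568.3 and 795.0 FPKM in normal, normal with PM10, inflamed and inflamed with PM10. OR2I1P overlaps UBD in the annotation, so its reads and those of UBD may not be separable.

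Bulk RNA cannot tell fewer cells of a type from less RNA per cell, so markers of other cells are given beside the ligands. Of 12 T and NK cell markers, 9 were listed at 0 in all 8 libraries, CD3D, CD3E, CD3G, CD4 and CD8A among them, and TRAC, which made up most of the sum, was at 13.3 and 13.6 FPKM in inflamed hIECs and 8.39 and 7.24 FPKM with PM10. Of 10 myeloid markers 8 were at 0 in all 8 libraries, and the summed level was 3.99 to 4.0 FPKM in inflamed hIECs and 4.61 to 4.99 FPKM with PM10. CD68, a lysosomal protein of macrophages, was at 0.399 and 0.333 FPKM without and at 1.11 and 1.83 FPKM with PM10, the 2 libraries through which it met the minimum. Of 4 B cell markers 3, and of 7 endothelial markers 5, were at 0 in all 8 libraries. The mesenchymal sum was 5791 to 5864 FPKM in inflamed hIECs and 5116 to 5134 FPKM with PM10. Of the 11 genes 1 was called higher and 6 lower, beside 6.22% and 9.02% of all genes. The epithelial sum, almost all of it KRT8 and KRT18, was 356.0 to 361.5 FPKM without and 298.8 to 316.9 FPKM with PM10. Of its 5 tested genes 1 was called higher, LGR5 (5.68 and 5.26 against 8.28 and 7.92 FPKM), and 1 lower, KRT18. Over all genes these shares were 6.22% and 9.02%. Between normal and inflamed hIECs, the epithelial sum was 658.4 to 667.0 against 356.0 to 361.5 FPKM and the mesenchymal sum 5097 to 5112 against 5791 to 5864 FPKM. FCER1G, a receptor chain of myeloid cells, was at 1.02 and 1.17 against 3.59 and 3.67 FPKM. The part of these differences in those of the 3 ligands was not tested.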

How the data were processed

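RNA-seq of 8 libraries (4 groups of 2) was used. The authors took RNA with an integrity number above 7.5. Libraries were, per the labels, selected for poly-A RNA and without strand information. The authors trimmed reads with Cutadapt 3.7 and Sickle 1.33 and aligned and assembled them with HISAT2 2.2.1 and StringTie 2.2.0 on GRCh38. The annotation release was not given in the sources used here. The values the authors deposited are FPKM, not scaled further between libraries. Of the gene identifiers, 99.5% are in GENCODE release 44.

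From these, log2(FPKM + 1) of 14206 genes (1 FPKM or more in 2 or more libraries) was fitted with limma 3.58.1 (R 4.3.3, variance trend, all 8 libraries, 5 contrasts), and p-values were adjusted over all genes tested (Benjamini-Hochberg, threshold 0.05). With no counts in the files, no count test was run, and depth is known only through the lowest values. On simulated data for the comparison of PM10 in inflamed hIECs (14206 genes), 97 of 100 genes changed by 1 and 52 of 100 changed by 0.5 on the log2 scale were called, with 8 unchanged genes. Replicate numbers were checked for pairing: deviations from group means correlated at −0.0015 to 0.079 between groups. No large effect shared by replicate number was thus seen, and the fit used no pairing. The check cannot tell whether libraries with the same number were prepared together. From each list, genes were named by role, with at least the 3 of largest absolute difference between inflamed and normal hIECs, except for 1 gene that is not reported here. The members and lists were chosen with earlier results of these data known. Alternatives changed the pseudocount, filter, scaling, variance trend, libraries fitted and gene class, and each library was left out in turn; 1 of them, a pseudocount of 0.1 with only the groups compared, was chosen after seeing the data. Promoters were read with Python 3.11.15.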

Additional observations from a re-analysis of the deposited data

Results flagged for a closer look

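The interaction of PM10 and cytokines for CXCL9 was 0.89 on the log2(FPKM + 1) scale (limma adjusted p = 0.00969), from differences of −0.14 in normal and 0.75 in inflamed hIECs. With 3 of the 4 libraries without cytokines listed at 0, the first of these was held near 0, so the interaction mostly restates the difference in inflamed hIECs. The call was lost with 0.1 added before the logarithm (1.59, limma adjusted p = 0.194).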

How the results depend on the processing

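CXCL10 was called higher with cytokines, in the cells without and with PM10, under each alternative run, and so were CXCL9 and CXCL11, which had met the filter through those libraries, also with no filter. With PM10 in inflamed hIECs, 1 ligand was called in the reported fit, 0 with a pseudocount of 0.1, and 2 (CXCL9 and CXCL11) with median centring, quantile normalization, the fit of only the groups compared, and that fit with a pseudocount of 0.1. Leaving out a library gave 1 to 2. For the interaction the count was 1, with 0 at a pseudocount of 0.1, 2 under median centring and quantile normalization, and 1 to 2 with a library left out, 2 being without normal replicate 2. With PM10 in normal hIECs it was 0, and 0 to 1 with a library left out. Without normal replicate 1, the CXCL9 difference there was 0, since each remaining value was 0, and the CXCL10 interaction turned to −0.027 (limma adjusted p = 0.844); without normal replicate 2 these were −0.29 and 0.24. Over all genes, PM10 in normal hIECs gave 1311 calls, 23 in the fit of only the groups compared, 32 in that fit with a pseudocount of 0.1, and 194 to 2627 with a library left out, highest without normal replicate 1. PM10 in inflamed hIECs gave 675 to 2992 and the interaction 263 to 1266 with a library left out, against 2165 and 937. Of the called genes, 59.7% were higher with PM10 in normal hIECs (42.9% under median centring), 40.8% in inflamed hIECs (50.8% under quantile normalization) and 32.0% in the interaction (45.7% and 46.6%). The replicate block changed no ligand count, leaving 1 ligand called with PM10 in inflamed hIECs and 1 in the interaction, and gave 1051, 1966 and 762 genes. Without cytokines CXCL9 was at or near the lowest measurable value, so a fall with PM10 in normal hIECs was not detectable at this depth.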
